A study of Mus musculus with 55 samples.

Results

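Hearts of mice without PPARα that had been given trilinolenin, a triglyceride whose 3 fatty acids are all linolenic acid, were set against hearts of the same genotype given a control gavage. The trilinolenin group held 5 hearts and the control group 5 hearts, 10 of the 55 hearts of the series, and the groups were taken as the labels give them. Each array was taken as 1 heart, although the labels do not say that each replicate is a separate mouse. Each of 18194 genes was represented by 1 probe set, that of the highest mean across the 55 arrays. All values are log2 signals, so a difference of 1 is a 2-fold change. The 8238 genes whose linear signal was over 20 in at least 3 arrays were tested, and the others were left out.

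All mice were male Sv129 animals, and the labels name the knockout as PPARalpha -/- of the 129S4/SvJae background and the wild type as 129S1/SvImJ, so the genotypes also differ in substrain. The labels give the age as 9 to 12 weeks in one field and 2 to 6 months in another. Every mouse of every group had eaten a modified AIN76A diet with olive oil for 2 weeks, was fasted for 4 h, received 400 µL by gavage, and gave its heart 6 h later. The control gavage was 0.5% carboxymethyl cellulose per the protocol, while another field calls it none. The comparison groups used further on are KO hearts given triolein, trilinolein or tridocosahexaenoin (5 each), and wild-type (WT) hearts given trilinolenin (4) or the control gavage (3). The 18-carbon fatty acids of triolein, trilinolein and trilinolenin have 1, 2 and 3 double bonds, and docosahexaenoic acid has 22 carbons and 6 double bonds. The control gavage carried no fat, so the contrast with control covers the fat load as well as the kind of fatty acid.

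PPARα is a nuclear receptor that binds DNA together with RXR, is switched on by fatty acids, and in heart muscle drives genes of fatty acid uptake, mitochondrial oxidation and uncoupling. Hearts without it keep the related receptors PPARδ and PPARγ. They also keep other regulators whose genes were examined here: the glucocorticoid receptor, the FoxO factors of the fasting response, and NRF2, which drives genes of glutathione and heme breakdown under oxidative stress.

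The Ppara transcript was checked first. Its 3 probe sets were lower in KO control hearts than in WT control hearts by -0.73, -1.29 and -0.71 on the log2 scale, and the probe set with the clearest gap placed 9 of the 10 KO hearts below every WT heart of the series. The sources used here do not say where these probe sets lie relative to the deleted part of the gene. The tissue label was borne out by its markers: 8 cardiomyocyte genes summed to a linear signal of 125330 to 131051 in trilinolenin hearts and 126939 to 134718 in control hearts, with 0 of 8 called by limma (0 at an unadjusted p under 0.05). The listed markers that were on the array for lymphocytes (8), neutrophils (7), lung (5) and liver (5) were all under the brightness minimum on all 10 arrays. The trilinolenin heart numbered 5 had an array weight of 0.492, the lowest of the 10, and results that rest on it are given with and without it. The 3′ over 5′ signal of Actb, a measure of RNA integrity, was 0.65 to 0.75 in trilinolenin hearts and 0.72 to 0.91 in control hearts on the log2 scale (two-sided exact permutation test, p = 0.0238, smallest possible 0.00794), while that of Gapdh did not differ beyond the spread (p = 0.452). The part of this shift in the results below was not tested.

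Trilinolenin moved 984 of 8238 genes at an adjusted p under 0.05 in limma's moderated test (11.9%). Of these, 383 rose (4.65%) and 601 fell (7.3%), and 285 of the 984 changed by more than 1.5-fold, 151 upwards and 134 downwards. The median over all tested genes was -0.02. For 306 genes every trilinolenin heart lay above every control heart (3.71%), and for 401 every trilinolenin heart lay below (4.87%), 8.58% in all. The count of called genes ranged from 649 to 1071 when each of the 10 hearts was left out in turn. It was lowest without control heart 3, at 649. Of the 984 genes, 637 to 877 were still called in these fits. All 984 kept their sign, which was nearly fixed in advance, since they were chosen for their calls and the fits share most hearts.

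**Figure D1:**
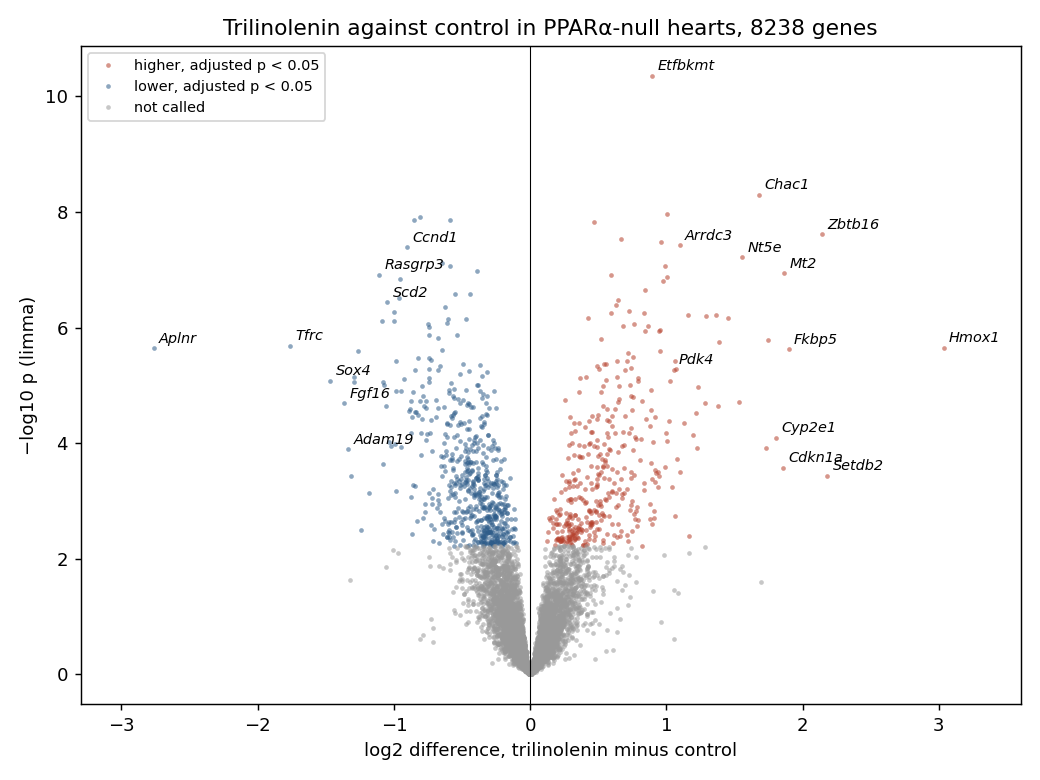
Each point is 1 of 8238 tested genes, with the log2 difference (trilinolenin minus control, KO hearts) on the horizontal axis and -log10 of limma's unadjusted p on the vertical axis. Red points are the 383 genes called higher, blue points the 601 called lower and grey points those not called. Hmox1 lies farthest to the right at 3.04 and Aplnr farthest to the left at -2.76.

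The largest rise was that of Hmox1, the inducible enzyme that breaks down heme. Its signal was 9.20, 9.34, 8.27, 7.50 and 7.77 in the trilinolenin hearts, against 5.42, 6.00, 5.12, 5.44 and 4.92 in the control hearts. The lowest trilinolenin heart was thus above the highest control heart. The difference was 3.04 ± 0.56 (SE, adjusted p = 0.000299), an 8.2-fold higher level. Zbtb16, a zinc finger transcription factor that glucocorticoids induce, was at 9.75, 10.17, 10.03, 10.05 and 10.24 in trilinolenin hearts, against 8.35, 8.34, 7.67, 6.56 and 8.61 in controls. The trilinolenin hearts were tightly grouped and the controls spread widely, without overlap (2.14 ± 0.32, adjusted p = 2.50e-05). Fkbp5, a co-chaperone that dampens the glucocorticoid receptor, had 8.67, 9.02, 9.00, 8.47 and 9.40 in trilinolenin hearts, against 7.38, 6.79, 6.25, 7.15 and 7.51 in controls (1.90 ± 0.35, adjusted p = 0.000309). These groups did not overlap either.

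Further large rises were those of the cell cycle inhibitor Cdkn1a (1.85 ± 0.47), the growth suppressor Ddit4 (1.73 ± 0.41), the adenosine-forming ectoenzyme Nt5e (1.55 ± 0.24, and 0.97 with the mean of its probe sets), the actin-associated gene Fam107a (1.53 ± 0.32), the interferon-inducible gene Ifi207 (1.45 ± 0.25), the alcohol dehydrogenase Adh1 (1.38 ± 0.25) and the exchange factor Rasgef1b (1.38 ± 0.29). Nt5e, Ifi207 and Adh1 separated the groups fully. Cdkn1a did not: it was 7.97, 8.17, 7.55, 6.44 and 8.76 in trilinolenin hearts, against 5.53, 5.83, 5.42, 6.01 and 6.83 in controls, so that trilinolenin heart 4 lay below control heart 5. Ddit4, Fam107a and Rasgef1b overlapped through control heart 5 as well, which stood at 9.85, 8.21 and 7.70 where the other controls reached at most 8.90, 7.14 and 6.56. Setdb2, a histone methyltransferase family member (2.18 ± 0.57), the cytochrome Cyp2e1 (1.80 ± 0.42), the kinase Map3k6 (1.75 ± 0.32) and Chac1, an enzyme that degrades glutathione (1.68 ± 0.23), also rose with no overlap. Their mean in control hearts was under the brightness minimum of 4.32, so the size of these 4 rises is less sure than their direction.

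The largest fall was that of Aplnr, the receptor of the peptide apelin, which is found on endothelial cells. Its signal was 4.72, 4.80, 4.77, 6.25 and 2.43 in trilinolenin hearts, against 7.79, 7.49, 7.73, 7.01 and 6.76 in controls. No values overlapped, although trilinolenin heart 5 lay far below the other 4 and heart 4 close to the controls (-2.76 ± 0.51, adjusted p = 0.000304). Leaving out any heart gave a difference between -3.18 and -2.22, and a second bright probe set of the gene gave -1.26. Tfrc, the transferrin receptor that brings iron into cells, was at 5.76, 5.61, 5.93, 6.44 and 5.26 in trilinolenin hearts, against 7.14, 7.64, 7.60, 8.44 and 7.01 in controls (-1.76 ± 0.33, adjusted p = 0.000285), again without overlap. The transcription factor Sox4 had 8.73, 8.14, 8.70, 8.94 and 7.25 in trilinolenin hearts, against 10.06, 9.64, 10.04, 10.05 and 9.32 in controls (-1.47 ± 0.29, adjusted p = 0.000663). All 5 trilinolenin hearts were below the lowest control.

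The other large falls were in Fgf16, a growth factor of heart muscle (-1.36 ± 0.29), the metalloprotease Adam19 (-1.34 ± 0.32), Myct1 (-1.31 ± 0.34), the steroid-reducing enzyme Akr1c14 (-1.29 ± 0.26), the serine protease Tmprss13 (-1.29 ± 0.26), the clock repressor Nr1d1 (-1.18 ± 0.33), the Ras exchange factor Rasgrp3 (-1.11 ± 0.18), Lrrc3b (-1.09 ± 0.19), the sialyltransferase St8sia4 (-1.08 ± 0.22), the deubiquitinase Otud1 (-1.08 ± 0.27), Fam78a (-1.07 ± 0.22) and the chaperone cofactor Dnajb1 (-1.06 ± 0.23). Myct1 and Nr1d1 overlapped between the groups and the other 10 did not. Fgf16, Myct1 and Tmprss13 averaged under the brightness minimum in trilinolenin hearts. Myct1 lost its call without trilinolenin heart 5, and Nr1d1 without trilinolenin heart 5 or control heart 3.

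**Figure D2:**
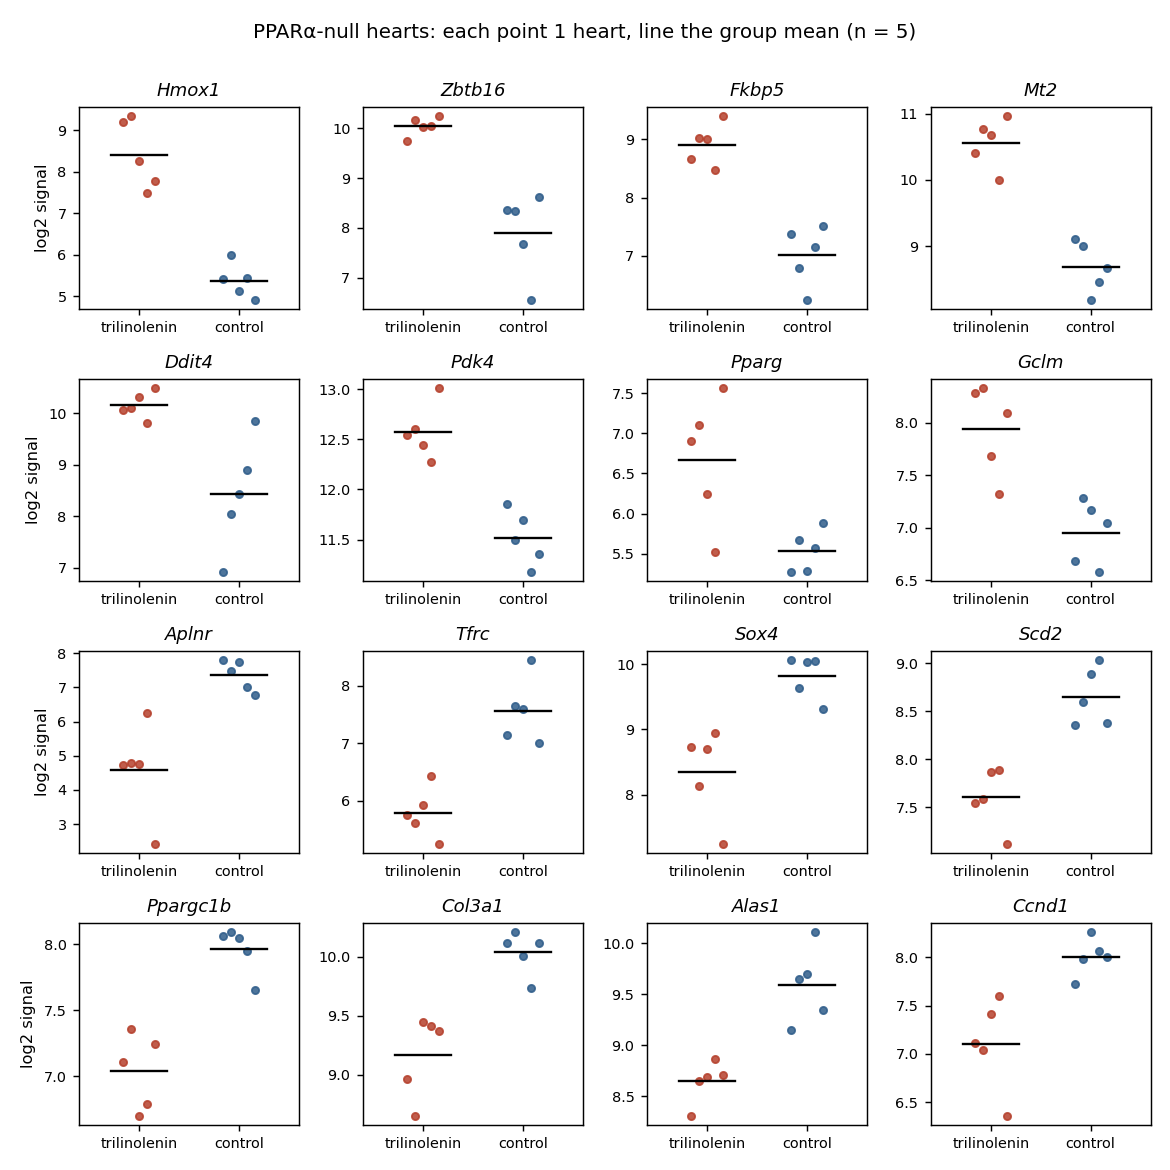
Log2 signal (vertical axes, a separate scale for each gene) of 16 genes in 5 trilinolenin hearts (red, left) and 5 control hearts (blue, right) of KO mice, with 1 point per heart and a line at the mean. The groups overlap for Ddit4 and Pparg and for no other gene shown, and the trilinolenin heart at 2.43 for Aplnr lies apart from its group.

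Genes that respond to glucocorticoids, the adrenal hormones of stress and fasting, were the list with the highest median. Of 20 tested members of 21 on the array, 14 rose and 1 fell, beside 4.65% and 7.3% of all tested genes, and the median difference was 0.82. These shares of all genes, higher and lower, are the background for every list below. The lists were chosen with earlier results of these data known, so the counts are descriptions and no test of a list was run. Fkbp5, Zbtb16, Cdkn1a, Ddit4 and Fam107a are described above. The metal-binding proteins Mt1 and Mt2 also belong to this list and are given below. Sult1a1, a sulfotransferase, rose by 0.89 ± 0.18, and Klf9, a transcription factor, by 0.41 ± 0.08, both without overlap (adjusted p = 0.000823 and 0.000617). Cebpd, a transcription factor of the acute phase response, rose by 0.92 ± 0.23 with overlap. Of the members named after their values were seen, the transcription factors Cebpb (0.76) and Klf15 (0.85) and the anti-inflammatory protein Tsc22d3 (0.65) rose. Nr3c1, the receptor itself, was the member that fell (-0.43), a call lost without trilinolenin heart 5. The 5 members that missed the threshold were Lcn2 (1.09, adjusted p = 0.166), Errfi1 (0.73), Pik3r1 (0.35), Per1 (0.26) and Dusp1 (0.10). Without trilinolenin heart 5 the count was 13 up and 0 down.

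The level of this list differed from heart to heart inside both groups. Its median, taken over the 20 genes relative to the control mean, was 0.81, 0.96, 0.80, 0.51 and 1.11 in the trilinolenin hearts, against -0.22, -0.05, -0.18, 0.06 and 0.46 in the control hearts. The groups did not overlap, but control heart 5 reached nearly the level of trilinolenin heart 4. Tsc22d3 shows this directly, with 10.18, 10.25, 10.42, 10.09 and 10.30 in trilinolenin hearts, against 9.25, 9.39, 9.46, 9.63 and 10.27 in controls. Sgk1, a kinase that glucocorticoids induce, overlapped more (10.50, 10.61, 10.34, 9.80 and 10.92 against 9.10, 9.69, 9.87, 10.08 and 10.27, a difference of 0.63). Its call was lost with no filter on brightness, when only the groups compared were fitted, without the 3 arrays of lowest weight, and when any of 6 hearts was left out, namely trilinolenin hearts 1, 2 and 5 and control hearts 1, 2 and 3.

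FoxO factors are held outside the nucleus by insulin signalling and in fasting muscle switch on genes of protein breakdown, autophagy and fuel choice. In the list of FoxO targets and muscle atrophy genes, 16 of 21 tested members rose and 0 fell, with a median of 0.44 (all tested genes: 4.65% rose, 7.3% fell, median -0.02). Ddit4 and Klf15 stand in this list and in the glucocorticoid list. The clearest rises by p were in Sesn1, a stress sensor upstream of mTORC1 (0.64 ± 0.11), the ubiquitin ligase Fbxo32 (0.42 ± 0.07), and Pdk4, the kinase that blocks glucose oxidation at pyruvate dehydrogenase. Pdk4 was at 12.54, 12.60, 12.44, 12.27 and 13.01 in trilinolenin hearts, against 11.85, 11.50, 11.70, 11.18 and 11.36 in controls. All trilinolenin hearts were higher (1.05 ± 0.20, adjusted p = 0.000506). The autophagy genes Gabarapl1 (0.79 ± 0.16) and Bnip3 (0.65 ± 0.13), the factor Foxo3 itself (0.60 ± 0.13) and the thioredoxin inhibitor Txnip (0.44 ± 0.10) also separated the groups. Trim63, the other main atrophy ligase, rose by 0.24, a call lost in the same 3 fits as that of Sgk1 and when any of 8 of the 10 hearts was left out, all but trilinolenin heart 4 and control heart 5. Leaving out single hearts gave 13 to 16 members up and 0 down.

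Of 14 tested genes of insulin and growth factor signalling, 0 rose and 0 fell. Their differences ran from -0.31 to 0.42, with a median of 0.02. In limma 3 of the 14 had an unadjusted p under 0.05, and 1 was called higher when trilinolenin heart 4 was left out.

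**Figure D3:**
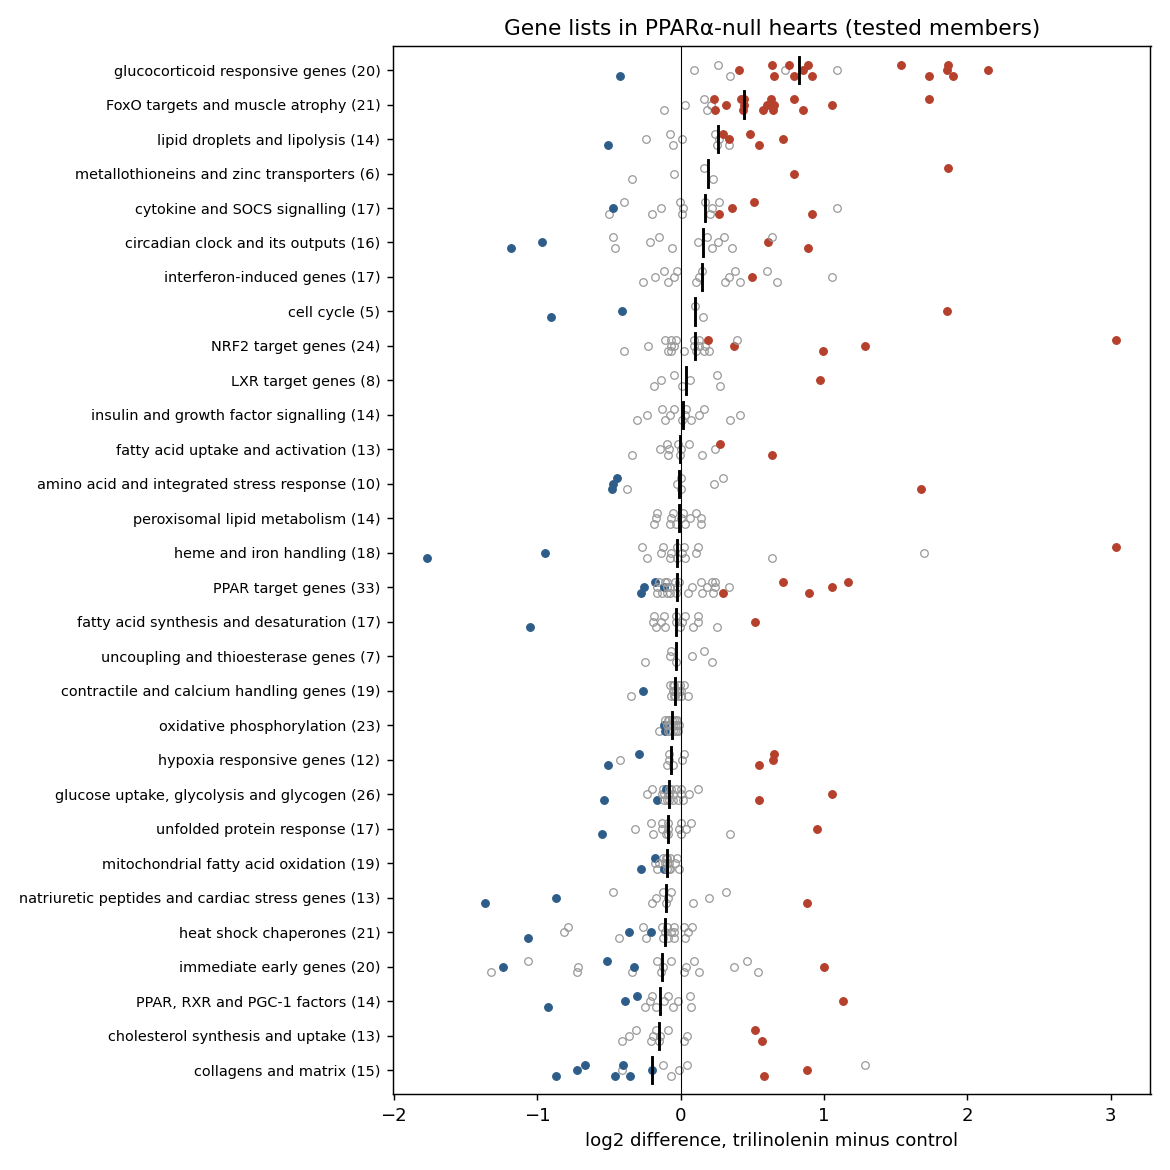
Tested members of 30 gene lists (number in parentheses), each point the log2 difference of a gene (trilinolenin minus control, KO hearts). Filled points passed an adjusted p under 0.05 (red higher, blue lower), open points did not, and black bars are medians. The glucocorticoid list (median 0.82) and the FoxO list (median 0.44) lie farthest to the right, and collagens and matrix (median -0.20) at the bottom.

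NRF2 is released from its inhibitor by oxidants and electrophiles and binds antioxidant response elements. Of its 24 tested target genes, 5 rose and 0 fell, beside 4.65% and 7.3% of all tested genes, and the median was 0.10. Fitting only the groups compared left 3 of the 5 rises. The 5 were Hmox1, the glutathione transferases Gsta3 (1.28 ± 0.27), Mgst1 (0.37 ± 0.10) and Gstm1 (0.19 ± 0.06), and Gclm, the modifier subunit of the enzyme that limits glutathione synthesis. Gclm was at 8.28, 8.33, 7.68, 7.32 and 8.09 in trilinolenin hearts, against 6.68, 7.28, 7.17, 6.58 and 7.04 in controls, and its groups just failed to touch (0.99 ± 0.25, adjusted p = 0.00598). Gstm1 lost its call without control heart 3 or without trilinolenin heart 2 or 5, and Gsta3 averaged under the brightness minimum in controls. The catalytic partner Gclc was at 0.39 (adjusted p = 0.0555). Other classical targets did not pass, among them Nqo1 at -0.39, Txnrd1 at -0.07 and Srxn1 at 0.13.

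In the list of heme and iron handling 1 of 18 tested genes rose and 2 fell, a share near the background of 4.65% and 7.3%. Beside the rise of Hmox1 and the fall of Tfrc, the first enzyme of heme synthesis, Alas1, fell by 0.95 ± 0.22 on the log2 scale (adjusted p = 0.00341). Its signal was 8.31, 8.65, 8.69, 8.87 and 8.71 in trilinolenin hearts, against 9.15, 9.65, 9.70, 10.11 and 9.35 in controls, with no overlap. The remaining 15 of 18 tested members were not called, including the ferritin heavy chain Fth1 at 0.11 (adjusted p = 0.0533) and the iron hormone Hamp at 1.70 (adjusted p = 0.128). Without trilinolenin heart 3, without control heart 4, or after a second quantile normalization, 2 members rose.

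The metallothioneins are small proteins that bind zinc and copper and respond to metals and to glucocorticoids. Mt2 was at 10.40, 10.76, 10.67, 10.00 and 10.96 in trilinolenin hearts, against 9.11, 9.00, 8.20, 8.46 and 8.68 in controls (1.87 ± 0.30, adjusted p = 5.17e-05). Mt1 was at 12.16, 12.38, 12.13, 11.77 and 12.45 in trilinolenin hearts, against 11.51, 11.48, 11.12, 11.24 and 11.59 in controls (0.79 ± 0.16, adjusted p = 0.000663). Both separated the groups completely. The other 4 tested genes of the list, the zinc exporter Slc30a1 (0.23), the importers Slc39a14 (0.16) and Slc39a10 (-0.34) and the zinc-sensing factor Mtf1 (-0.05), were not called.

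Promoter windows of Mt1, Mt2 and Gclm are printed because these genes rose and their windows hold the letters of a response element by which their kind of gene is known to be controlled. The windows run from 250 bases before to 30 bases after the transcription start, come from RefSeq on GRCm38.p6, and lie on the plus strand at chr8:94178839-94179118 for Mt1, chr8:94172368-94172647 for Mt2 and chr3:122245307-122245586 for Gclm. Capitals mark the metal response element core, written TGCACNC or TGCGCNC, in the metallothioneins, and the antioxidant response element core, written TGACNNNGC, in Gclm, each searched on both strands.
Mt1: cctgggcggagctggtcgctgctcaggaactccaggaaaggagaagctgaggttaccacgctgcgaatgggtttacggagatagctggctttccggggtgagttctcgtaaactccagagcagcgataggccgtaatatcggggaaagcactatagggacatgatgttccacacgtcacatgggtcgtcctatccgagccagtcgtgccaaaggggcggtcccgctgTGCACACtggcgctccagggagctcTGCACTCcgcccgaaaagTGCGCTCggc
Mt2: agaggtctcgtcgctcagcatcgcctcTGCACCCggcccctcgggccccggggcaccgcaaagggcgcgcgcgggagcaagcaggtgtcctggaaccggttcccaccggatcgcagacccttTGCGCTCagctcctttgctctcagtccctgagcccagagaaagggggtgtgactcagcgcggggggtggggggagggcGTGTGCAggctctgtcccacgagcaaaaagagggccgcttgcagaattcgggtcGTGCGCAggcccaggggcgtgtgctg
Gclm: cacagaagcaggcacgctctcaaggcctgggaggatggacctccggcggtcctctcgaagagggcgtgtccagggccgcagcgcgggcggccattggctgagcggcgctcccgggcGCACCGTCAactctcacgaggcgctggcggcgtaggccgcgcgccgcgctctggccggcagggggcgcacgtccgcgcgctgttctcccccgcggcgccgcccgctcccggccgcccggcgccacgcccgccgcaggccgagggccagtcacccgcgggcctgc
The metal core was found 3 times in the Mt1 window and 4 times in the Mt2 window. It occurs in 24.1% of 32851 promoter windows, and 1.73% hold it 3 times or more. The antioxidant core was present in 3 of the 4 called NRF2 targets with a window and in 11.5% of all windows. It was also present in the uncalled targets Txnrd1, Pgd, Me1 and Abcc4. Of 12 called glucocorticoid-responsive genes with a window, 1 (Sgk1, which has 6 windows) held the palindromic glucocorticoid response element, which 0.0396% of windows hold. A gene was counted if any of its windows held the letters, while the shares are per window, so the 2 measures are unlike. These matches are of letters only.

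Genes that PPARs control were examined next. Of 33 tested PPAR target genes, 5 rose and 4 fell, beside 4.65% and 7.3% of all tested genes, with a median of -0.03. The rises were in Pdk4, in the lipid droplet coat protein Plin4 (0.71 ± 0.13), in Etfbkmt, a mitochondrial methyltransferase, in Hsd17b11 (0.30 ± 0.10) and in Angptl4, a secreted inhibitor of lipoprotein lipase. Etfbkmt had the smallest p of all genes: 9.02, 8.99, 8.91, 8.84 and 8.98 in trilinolenin hearts, against 8.14, 7.99, 8.12, 7.96 and 8.07 in controls (0.89 ± 0.10, adjusted p = 3.63e-07). The hearts of each group lay close together and far from the other group.

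Angptl4 was at 8.12, 8.22, 7.82, 8.19 and 9.08 in trilinolenin hearts, against 7.79, 6.87, 6.94, 7.11 and 6.89 in controls. The groups were apart by a narrow margin, since control heart 1 almost reached trilinolenin heart 3 (1.17 ± 0.38, adjusted p = 0.0384). With the mean of its probe sets the rise was 0.70. The call was lost with no filter, without the 3 arrays of lowest weight, and without any of 7 hearts: control hearts 2, 3, 4 and 5 and trilinolenin hearts 1, 2 and 5. Hsd17b11 lost its call without trilinolenin hearts 1, 2 or 5 or control hearts 3, 4 or 5. The list had 3 rises in place of 5 without any of these 6 hearts, 2 falls in place of 4 without trilinolenin heart 1 or 2 or control heart 3, and 7 falls without control heart 5.

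The 4 PPAR targets that fell did so by small amounts: the mitochondrial thiolase Acaa2 (-0.27 ± 0.07), the dehydrogenase-like gene Hsdl2 (-0.25 ± 0.07) and the acyl-CoA dehydrogenases Acadvl (-0.18 ± 0.05) and Acadl (-0.12 ± 0.04). Acadl and Hsdl2 lost their calls without control heart 3 or 4 or trilinolenin heart 1 or 2, Acadl also without trilinolenin heart 3, and Acaa2 without control heart 1. Fitting only the groups compared left 0 of the 4 calls, and with the mean of its probe sets Acadl was at -0.011. In the wider list of mitochondrial fatty acid oxidation, 3 of 19 tested genes fell and 0 rose, and all 19 differences were below 0 with a median of -0.10, beside 56% of all tested genes and a median of -0.02. By heart, relative to the control mean, this list's median was -0.17, -0.09, -0.12, -0.09 and -0.06 in trilinolenin hearts. In control hearts it was 0.02, 0.01, 0.06, 0.01 and -0.10, so control heart 5 lay inside the trilinolenin range. After a second quantile normalization 18 of the 19 were below 0, and 0 were called when only the groups compared were fitted. All 23 tested subunits of oxidative phosphorylation were below 0 too (22 after the second normalization), with a median of -0.06 and 2 called, Ndufs3 (-0.11 ± 0.03) and Uqcrfs1 (-0.12 ± 0.03). By heart their median ran from -0.10 to -0.05 in trilinolenin hearts and from -0.06 to 0.03 in control hearts, so the groups overlapped. The count called was 4 after the second normalization, 0 when only the groups compared were fitted and 7 with array weights. It was 0 without control heart 3, 1 without control heart 4 or trilinolenin heart 1 or 4, and 7 without control heart 5. Peroxisomal lipid genes had 0 of 14 called by limma (2 at an unadjusted p under 0.05), with differences from -0.18 to 0.14. Without control heart 5 there were 2 falls, and without trilinolenin heart 4 there was 1.

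Several PPARα targets did not pass the test. Ucp3, the uncoupling protein of muscle mitochondria, was at 4.35, 4.03, 4.08, 3.77 and 4.35 in trilinolenin hearts, against 4.32, 3.78, 4.09, 3.85 and 3.43 in controls, with both means under the brightness minimum. The thioesterase Acot1 was also under the minimum in both groups apart from single hearts, and its difference of 0.08 turned to -0.19 without trilinolenin heart 5. Cpt1a, a carnitine acyltransferase at the entry of the oxidation pathway, was at -0.11 ± 0.16. Its relative Cpt1b was not tested, so this step was measured only in part. Cd36, the fatty acid transporter, was at 0.15 ± 0.05 (adjusted p = 0.0649). The heart fatty acid binding protein Fabp3 was at -0.10 ± 0.03 (adjusted p = 0.0509). Neither Cd36 nor Fabp3 overlapped between the groups, and both passed with a filter at 100 or a trended prior, Fabp3 also with array weights. Of 7 uncoupling and thioesterase genes limma called 0 (1 at an unadjusted p under 0.05), and 1 was called when trilinolenin heart 1 or control heart 2 or 4 was left out, or after a second quantile normalization.

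In the list of lipid droplets and lipolysis, 5 of 14 tested members rose and 1 fell, beside 4.65% and 7.3% of all tested genes, with a median of 0.26. When only the groups compared were fitted, 2 rose and 0 fell. The rises were in Plin4, in Dgat2, which makes triglyceride (0.55 ± 0.14), in the lipases Lipe (0.48 ± 0.14) and Pnpla2 (0.34 ± 0.11), and in Hsd17b11, and the fall was in G0s2, an inhibitor of Pnpla2 (-0.51 ± 0.13). Plin4 was at 10.17, 10.52, 10.13, 10.01 and 10.62 in trilinolenin hearts, against 9.77, 9.56, 9.22, 9.56 and 9.76 in controls, and Dgat2 separated the groups too. Lipe was not called with the mean of all its probe sets (0.17, adjusted p = 0.273). Lipe, Pnpla2 and Hsd17b11 overlapped, and the number of rises fell to 3 without trilinolenin heart 5 and to 2 without trilinolenin heart 2, control heart 3 or control heart 4. Plin2, the common droplet protein, was at 0.24 ± 0.12 (adjusted p = 0.193) and Plin5 at 0.34 ± 0.18 (adjusted p = 0.24).

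Among 13 genes of fatty acid uptake and activation, 2 rose and 0 fell, beside the background of 4.65% and 7.3%. They were Gpihbp1, which carries lipoprotein lipase to the capillary wall (0.64 ± 0.12, adjusted p = 0.000422), and Fabp4, a fatty acid binding protein of endothelium and fat cells (0.28 ± 0.07). Gpihbp1 was at 10.49, 10.88, 10.45, 10.43 and 10.95 in trilinolenin hearts, against 10.13, 9.97, 9.92, 9.84 and 10.16 in controls. Both genes separated the groups, and lipoprotein lipase itself, Lpl, was at 0.06. Without trilinolenin heart 4, control heart 4 or control heart 5, 1 member fell as well.

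Among 17 tested genes of fatty acid synthesis and desaturation 1 fell and 1 rose, a share near the background of 7.3% and 4.65%. The same background applies to the cholesterol and LXR lists given next. The desaturase Scd2 was at 7.54, 7.59, 7.87, 7.89 and 7.12 in trilinolenin hearts, against 8.36, 8.60, 8.89, 9.03 and 8.38 in controls, all lower (-1.05 ± 0.18, adjusted p = 0.000103). Insig1, which holds back sterol and fat synthesis, rose by 0.52 ± 0.13. Insig1 also belongs to the list of cholesterol synthesis and uptake, where it and the squalene synthase Fdft1 (0.57 ± 0.14) rose among 13 tested genes and 0 fell. The median of that list was nevertheless -0.15, and there were 3 falls without control heart 5 and 1 without trilinolenin heart 1 or 4. Mylip, a ubiquitin ligase that degrades the LDL receptor, was the riser among 8 LXR target genes (0.97 ± 0.16, adjusted p = 5.54e-05), with 8.07, 8.30, 7.71, 7.65 and 8.40 in trilinolenin hearts, against 6.95, 7.12, 6.92, 7.13 and 7.14 in controls.

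The receptors and coactivators that remain in KO hearts moved as follows. Pparg, the PPAR of fat cells, rose by 1.13 ± 0.25 (adjusted p = 0.0018), with 6.91, 7.10, 6.24, 5.52 and 7.56 in trilinolenin hearts, against 5.28, 5.67, 5.29, 5.57 and 5.89 in controls. Trilinolenin heart 4 lay inside the control range and the other 4 above it, and the call was lost when only the groups compared were fitted (adjusted p = 0.0546). Genes of the white adipocyte list are given beside it. Retn and Lep were under the minimum on all 10 arrays. Adipoq reached 4.66 in trilinolenin heart 4 and was at most 3.80 elsewhere. Slc36a2, a listed gene that is not specific to white fat cells, was at 4.97, 5.02, 4.52, 4.76 and 4.66 in trilinolenin hearts, against 5.01, 4.95, 5.20, 5.43 and 4.87 in controls (-0.31, adjusted p = 0.262). These 4 genes, Pparg left out, summed to 39.5 to 60.5 in trilinolenin hearts and 45.3 to 57.8 in control hearts. Slc36a2 was the largest part of that sum in each heart, so the sum is a weak measure of white fat cells. Ppargc1b, a coactivator of mitochondrial genes, was at 7.11, 7.36, 6.70, 6.79 and 7.24 in trilinolenin hearts, against 8.06, 8.09, 8.05, 7.95 and 7.65 in controls, all lower (-0.92 ± 0.18, adjusted p = 0.000639). Rxrg (-0.39 ± 0.08) and the mediator subunit Med1 (-0.30 ± 0.09) also fell, and Med1 lost its call without trilinolenin heart 5 or control heart 3. The other 10 of 14 tested factors were not called.

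In glucose metabolism 2 of 26 tested genes rose and 3 fell, a share near the background of 4.65% and 7.3%. The rises were in Pdk4 and the glucose transporter Slc2a1 (0.55 ± 0.14), and the falls in Pfkfb2, which sets the level of a glycolytic activator (-0.53 ± 0.14), Pkm (-0.16 ± 0.05) and Eno3 (-0.10 ± 0.04). Slc2a1 and Pfkfb2 separated the groups. Pkm lost its call without any of 9 hearts, all but control heart 5, and Eno3 without any of trilinolenin hearts 1 to 4 and control hearts 2 to 4, so that 1 fall was left without trilinolenin hearts 1, 2 or 4 or control hearts 2 or 3. Among 12 hypoxia-responsive genes 3 rose (Slc2a1, Bnip3 and Ndrg1, the last at 0.65 ± 0.14) and 2 fell (Vegfa, the endothelial growth factor, at -0.51 ± 0.11 and Hif1a at -0.29 ± 0.09), beside the background of 4.65% and 7.3%. Vegfa was at 9.45, 8.99, 9.35, 9.19 and 9.19 in trilinolenin hearts, against 9.98, 9.57, 9.67, 9.81 and 9.70 in controls, without overlap. Hif1a lost its call without trilinolenin heart 5 or control heart 2 or 4.

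Vascular genes went in both directions. Of 11 endothelial markers, the junction protein Esam (0.54 ± 0.10), the water channel Aqp1 (0.51 ± 0.12) and Fabp4 rose, the receptor Kdr (-0.61 ± 0.20) and Emcn (-0.39 ± 0.12) fell, and 6 were not called (background 4.65% higher and 7.3% lower). The list's median was -0.16, while its summed linear signal, Fabp4 included, was 17596 to 21196 in trilinolenin hearts and 15073 to 16962 in control hearts. Most of that sum was Fabp4 alone, at 13.64 to 14.02 in trilinolenin hearts and 13.47 to 13.62 in control hearts on the log2 scale. In whole tissue a change in the number of cells of a type cannot be told apart from a change in RNA per cell. Kdr and Emcn overlapped between groups. Kdr lost its call with no filter and without any of trilinolenin hearts 1 to 4 or control hearts 1 to 3, and Emcn with no filter, when only the groups compared were fitted, without the 3 arrays of lowest weight, and without trilinolenin heart 1 or 5 or control heart 4 or 5. The part of endothelial content in the falls of Aplnr, Kdr and Vegfa and the rise of Gpihbp1 was not tested.

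Collagens and matrix genes were the list with the lowest median, -0.20. By heart the median was -0.20, -0.30, -0.09, -0.20 and -0.21 in trilinolenin hearts, against 0.01, 0.10, -0.10, -0.17 and 0.11 in controls. The groups thus overlapped in this median. Of 15 tested members 7 fell and 2 rose, beside 7.3% and 4.65% of all tested genes. Col3a1, a fibrillar collagen made by fibroblasts, was at 8.96, 8.65, 9.45, 9.41 and 9.37 in trilinolenin hearts, against 10.12, 10.21, 10.01, 9.74 and 10.12 in controls (-0.87 ± 0.20, adjusted p = 0.0024), and Col1a1 at 6.53, 6.24, 6.51, 6.58 and 6.25, against 7.30, 7.32, 7.02, 6.82 and 7.25 (-0.72 ± 0.20, adjusted p = 0.0136). Neither overlapped. Smaller falls were seen in Col6a1 (-0.45 ± 0.12), in the basement membrane collagens Col4a1 (-0.40 ± 0.11) and Col4a2 (-0.35 ± 0.09), and in Col15a1 and Sparc, whose calls were lost without any of 3 hearts (Col15a1: trilinolenin heart 2, control hearts 2 and 3) or of 8 hearts (Sparc: all but trilinolenin heart 3 and control heart 4). Sparc was also lost in 5 of the other fits, among them the second quantile normalization. The rises were in the metalloproteinase inhibitor Timp3 (0.58 ± 0.13) and the matrix protein Ccn2 (0.88 ± 0.25), and Ccn2 was not called without control heart 1. Lox, which cross-links collagen, was at 1.28 ± 0.45 (adjusted p = 0.0507). Col1a1 and Col3a1 were also the 2 of 10 fibroblast markers that fell. Of the 10, 6 lay above 0 and 4 below, with a median of 0.02. In limma 6 of the 10 had an unadjusted p under 0.05, counted in either direction. The fibroblast markers together summed to 12775 to 13961 in trilinolenin hearts and 11853 to 14084 in control hearts, and most of that sum was Gsn and Dcn.

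Among macrophage markers, 2 of 12 rose beside a background of 4.65%, the scavenger receptor Cd163 (0.69 ± 0.17) and Lyve1 (0.76 ± 0.20), both without overlap. Cd14 did not overlap either, at 4.57, 4.36, 4.49, 4.99 and 5.33 in trilinolenin hearts, against 4.10, 3.76, 4.09, 4.07 and 3.85 in controls. It was not called, and its control hearts were under the brightness minimum. Of the 12 markers 6 lay above 0 and 6 below, with a median of 0.01. The list summed to 2401 to 2823 in trilinolenin hearts and 2184 to 2695 in control hearts. Smooth muscle and pericyte markers had 0 of 9 called by limma (1 at an unadjusted p under 0.05). In the list of cytokine signalling 4 of 17 rose and 1 fell, beside the background of 4.65% and 7.3%. The rises were in Cebpd, the NF-κB inhibitor Nfkbia (0.51 ± 0.15) and the receptors Osmr (0.36 ± 0.11) and Lifr (0.27 ± 0.09), and the fall was in the chemokine Cxcl12 (-0.47 ± 0.12), which did not overlap. Osmr and Lifr lost their calls with no filter and with the mean of their probe sets, and Nfkbia when only the groups compared were fitted. Either 1 or 2 of the rises were left without any of trilinolenin hearts 1 to 4 or control hearts 1 to 4. Iigp1 was the called gene among 17 interferon-induced genes (0.50 ± 0.14). Without control heart 5 no member was called, without trilinolenin heart 1 there were 2 and without trilinolenin heart 4 there were 3.

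In the circadian list 2 of 16 tested genes rose and 2 fell, beside the background of 4.65% and 7.3%. Cry1, a repressor of the clock, rose by 0.89 ± 0.19, with 7.28, 6.96, 6.85, 6.57 and 7.16 in trilinolenin hearts, against 5.97, 6.09, 6.00, 5.98 and 6.36 in controls. Bhlhe40, another repressor, fell by 0.97 ± 0.16 (adjusted p = 9.35e-05), with trilinolenin heart 4 and control heart 1 both at 7.54 and no other contact between the groups. Per2 rose by 0.61 ± 0.21, but a second bright probe set of this gene gave -0.15 and its call was lost without any of 9 hearts, all but control heart 5. Nr1d1 is given above, and the other 12 of 16 members were not called. Without trilinolenin heart 4 there were 3 rises.

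Nr4a1, an orphan receptor induced within minutes by hormones and stress, was at 8.73, 6.86, 7.21, 6.96 and 7.10 in trilinolenin hearts, against 8.04, 8.55, 8.97, 8.34 and 9.14 in controls. Trilinolenin heart 1 lay among the controls and the other 4 below them (-1.24 ± 0.40, adjusted p = 0.0329), and the call was lost with no filter and without any of 7 hearts, all but trilinolenin heart 1 and control hearts 1 and 4. Ier3 (-0.51 ± 0.14) and Jun (-0.33 ± 0.10) fell with it and Maff rose (1.00 ± 0.23) among 20 immediate early genes, 1 up and 3 down beside the background of 4.65% and 7.3%. Maff averaged under the brightness minimum in controls. Ier3 lost its call without trilinolenin heart 5, and Jun without trilinolenin heart 2 or 3 or control heart 2 or 3, so that 1 fall was left without any of trilinolenin hearts 2, 3 and 5 and control hearts 2 and 3.

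Of 21 heat shock chaperones 3 fell and 0 rose, beside 7.3% and 4.65% of all tested genes. Dnajb1, the cofactor that delivers clients to Hsp70, was at 5.95, 6.18, 5.74, 6.25 and 6.04 in trilinolenin hearts, against 6.79, 6.99, 7.19, 7.02 and 7.47 in controls, and Hspb8, a small chaperone, fell by 0.36 ± 0.08, both without overlap. The fall of Hspd1 (-0.21 ± 0.07) was at the threshold (adjusted p = 0.0498) and was lost without any of 7 hearts (trilinolenin hearts 1, 2 and 5, control hearts 2 to 5). In the integrated stress response Chac1 rose while Slc7a1, an arginine transporter (-0.48 ± 0.13), Ddit3 (-0.47 ± 0.12) and Atf5 (-0.44 ± 0.14) fell, out of 10 tested genes, with Atf5 losing its call without any of trilinolenin hearts 2, 4 and 5 and control hearts 1 to 3. Without control heart 5, 2 members rose. In the unfolded protein response, Herpud1, a component of ER-associated degradation, rose by 0.95 ± 0.17, with 11.63, 11.83, 11.50, 11.46 and 11.76 in trilinolenin hearts, against 10.90, 10.51, 10.43, 10.70 and 10.89 in controls. Manf fell (-0.55 ± 0.17), a call lost with no filter and without any of trilinolenin hearts 1, 2 and 5 and control hearts 3 to 5, and the other 15 of 17 were not called. Without control heart 5 or after a second quantile normalization there were 2 rises, and without trilinolenin heart 3 or 4 there were 2 or 3 falls.

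Of 19 contractile and calcium handling genes 1 fell, the calcium buffer Casq2 (-0.26 ± 0.08), and without any of 5 hearts (trilinolenin hearts 1 and 2, control hearts 2 to 4) there was none. Among 13 natriuretic peptide and stress genes, Ccn2 rose and Fgf16 and the cytokine receptor Tnfrsf12a (-0.87 ± 0.28) fell, the last of these losing its call with no filter, with the mean of its probe sets and without any of 7 hearts (trilinolenin hearts 2 to 5, control hearts 1 to 3). Ccn2 was not called without control heart 1. Nppb, which encodes B-type natriuretic peptide, was at -0.47 ± 0.31 (adjusted p = 0.351). The 6 atrial muscle markers, Bmp10 among them under the minimum on all 10 arrays, summed to 8314 to 16709 in trilinolenin hearts and 5138 to 17789 in control hearts, and limma called 0 of the 5 tested (0 at an unadjusted p under 0.05). All 5 lay above 0, with a median of 0.61. By heart, relative to the control mean, their median was 1.20, 0.86, 0.78, -0.04 and 0.57 in trilinolenin hearts. In control hearts it was -0.44, -0.28, -1.69, 1.13 and 1.50, so it varied widely. The part of atrial content in the other results was not tested. In the cell cycle list, of which 5 of 13 genes were bright, Cdkn1a rose and the cyclins Ccnd1 and Ccnd2 fell (1 and 2 of 5, background 4.65% and 7.3%). Ccnd1 was at 7.11, 7.04, 7.41, 7.60 and 6.36 in trilinolenin hearts, against 7.72, 7.98, 8.26, 8.07 and 8.00 in controls (-0.90 ± 0.14, adjusted p = 2.76e-05), and Ccnd2 fell by 0.41 ± 0.10.

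Whether the response needs PPARα was asked by setting it beside that of WT hearts, which were of another substrain and shared no array with the KO groups. In WT hearts 281 genes were called (3.41%), with 4 hearts against 3. Of the 984 genes called in KO hearts, 925 (94%) had the same sign in WT hearts, beside 70.1% of all tested genes. For the genes that rose, the median was 0.51 in KO hearts and 0.30 in WT hearts, and for those that fell it was -0.40 in KO hearts and -0.26 in WT hearts. As the genes were chosen for their size in KO hearts, the smaller WT medians carry no test. Called in both genotypes were 163 genes, all with the same sign, which is 16.6% of the KO calls and 58% of the WT calls.

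The difference between the responses, tested as an interaction, was called for 0 genes in limma (383 at an unadjusted p under 0.05). The 95% interval of the difference had a median half-width of 0.33, so differences of moderate size could not be detected. The gene nearest to the threshold was Eci2, an isomerase of fatty acid oxidation named after its value was seen (-0.10 in KO hearts, 0.27 in WT hearts, difference -0.37 ± 0.07, adjusted p = 0.0651). It or another gene crossed the threshold when control heart 5 or trilinolenin heart 5 of the KO groups was left out (1 gene each).

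Hmox1 responded in both genotypes, with 8.39, 9.18, 7.31 and 8.27 in WT trilinolenin hearts, against 5.66, 6.29 and 4.39 in WT controls, a difference of 2.84 ± 0.68. The responses differed by 0.19, with a 95% interval of -1.58 to 1.97. Fkbp5 rose by 1.81 ± 0.43 and Etfbkmt by 1.00 ± 0.13 in WT hearts, beside 1.90 and 0.89 in KO hearts. Ucp3 was at 6.93, 7.26, 7.61 and 7.14 in WT trilinolenin hearts, against 6.37, 6.30 and 5.09 in WT controls (1.31 ± 0.32), where the means of both KO groups were under the brightness minimum. The difference between the genotypes' responses was -1.09 ± 0.42 for this gene (unadjusted p = 0.0129, adjusted p = 0.957). For Pparg it was 1.03 ± 0.39 (adjusted p = 0.957), as WT hearts had 5.25, 5.44, 5.44 and 5.59 after trilinolenin, against 5.08, 5.25 and 5.65 in controls. Aplnr differed by -1.64 ± 0.80 and Cdkn1a by 1.52 ± 0.74 (adjusted p = 0.997 for both), so neither difference passed the test.

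**Figure D4:**
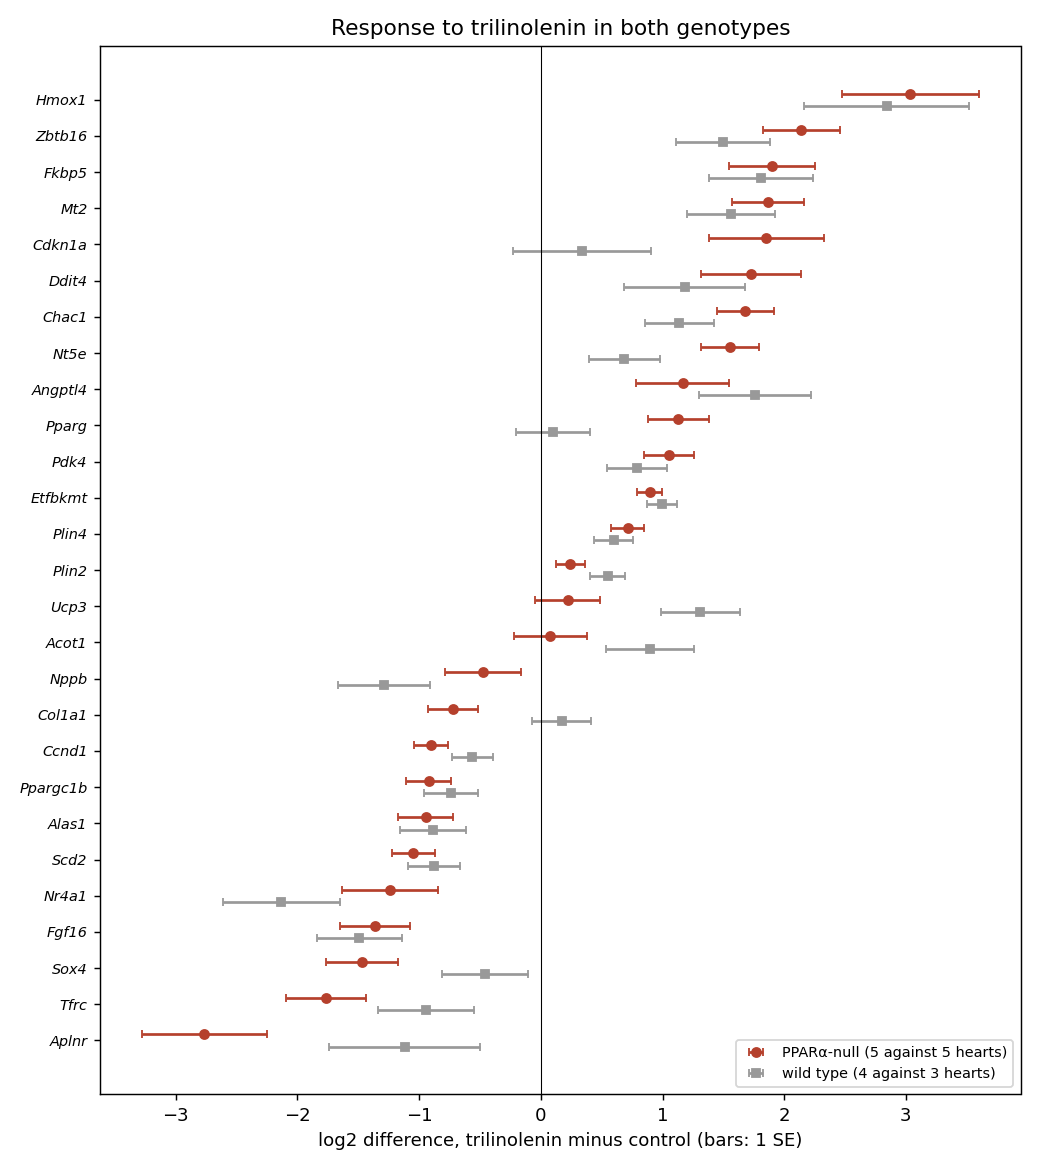
Log2 difference (trilinolenin minus control) of 27 genes in KO hearts (red circles, 5 against 5 hearts) and in WT hearts (grey squares, 4 against 3 hearts), with bars of 1 SE. Hmox1, Fkbp5 and Etfbkmt lie close together in both genotypes, and Ucp3 is at 1.31 in WT and 0.22 in KO hearts, a difference that did not pass the adjusted test.

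Trilinolenin was also compared with each of the other 3 triglycerides in KO hearts, given at the same volume and time, 3 pairs in all. Against triolein, the triglyceride of oleic acid, 83 genes were called (1.01%), 33 higher and 50 lower after trilinolenin. That count was 27 to 49 without any of trilinolenin hearts 1, 2 and 5 and triolein hearts 1 to 4, and 130 without trilinolenin heart 4. Against trilinolein, the triglyceride of linoleic acid with 1 double bond fewer, 0 genes were called (363 at an unadjusted p under 0.05, smallest adjusted p 0.845). Without trilinolenin heart 4 it was 1. Against tridocosahexaenoin 27 were called (0.328%), 8 higher and 19 lower. All 27 calls were lost with array weights, when only the groups compared were fitted, and without the 3 arrays of lowest weight. This count was 0 without tridocosahexaenoin heart 1, 1 to 14 without tridocosahexaenoin heart 3 or trilinolenin heart 2, 3 or 5, and 44 to 55 without tridocosahexaenoin heart 2, 4 or 5. In each pair the 95% interval had a median half-width of 0.21, so the lack of calls against trilinolein does not show that these oils act alike.

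Hmox1 gave the largest difference from triolein. It was at 9.20, 9.34, 8.27, 7.50 and 7.77 after trilinolenin, against 5.85, 5.40, 4.86, 4.63 and 6.21 after triolein (3.02 ± 0.56, adjusted p = 0.00207), beside 4.92 to 6.00 after the control gavage. After trilinolein it was 7.55, 7.67, 7.85, 6.95 and 8.01, overlapping with trilinolenin (0.81 ± 0.56, 95% interval -0.32 to 1.94, adjusted p = 0.997). After tridocosahexaenoin it spread from 4.17 to 8.55 (1.99 ± 0.56, adjusted p = 0.0941). Arrdc3, an arrestin-domain gene linked to Txnip, was higher after trilinolenin than after triolein (1.07 ± 0.17, adjusted p = 0.0003) and than after tridocosahexaenoin (0.80 ± 0.17, adjusted p = 0.0244), and differed from trilinolein by 0.08 (95% interval -0.25 to 0.42).

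Chac1 (1.26 ± 0.23) and the Ras-like gene Rasd1 (1.24 ± 0.22) were the next largest rises over triolein. Rasd1 was at 5.48, 5.20, 5.40, 5.28 and 5.77 after trilinolenin, against 4.17, 3.88, 4.29, 4.18 and 4.40 after triolein, with no overlap. The triolein mean was under the brightness minimum, so the size of this difference is less sure than its direction. Lower after trilinolenin than after triolein were Adam19 (-1.72 ± 0.32), Cmpk2 (-1.07 ± 0.23) and the Ras-like gene Rasl11b (-0.78 ± 0.15). Cmpk2 averaged under the brightness minimum after trilinolenin and overlapped in 1 heart, while Adam19, at 5.83, 5.48, 5.47, 4.85 and 4.70 after trilinolenin and 6.89, 6.64, 7.06, 6.96 and 7.38 after triolein, did not overlap. Against tridocosahexaenoin the largest of the called differences, none of which was called in those 3 fits, were Zc3h6 (0.94 ± 0.23), Arrdc3 and Cdkn1c (0.53 ± 0.12) upwards, and Tmprss13 (-1.15 ± 0.26), the STAT5 inhibitor Cish (-0.88 ± 0.18) and Rasl11b (-0.79 ± 0.15) downwards. Tmprss13, which averaged under the minimum after trilinolenin, overlapped with tridocosahexaenoin heart 2. Against the control gavage Cmpk2 was at 0.12 ± 0.23 and Zc3h6 at 0.34 ± 0.23, and neither passed the test. The PPAR target Etfbkmt was higher than after triolein by 0.44 ± 0.10 (adjusted p = 0.0252), and differed by 0.02 from trilinolein (95% interval -0.19 to 0.23) and by 0.35 from tridocosahexaenoin (adjusted p = 0.116).

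Of the glucocorticoid and fasting genes, Fkbp5, Zbtb16, Pdk4 and Angptl4 did not pass the test against any other oil. Fkbp5 was higher by 0.41 than after triolein (95% interval -0.30 to 1.12), by 0.25 than after trilinolein (-0.46 to 0.96), and differed by -0.04 from tridocosahexaenoin (-0.75 to 0.67). Zbtb16 differed by 0.62, 0.48 and 0.15 from these 3 oils in the same order, and Pdk4 by 0.41, 0.02 and 0.28. Angptl4 differed by 0.04, 0.20 and -0.05. The difference of Aplnr from triolein was -1.59 ± 0.51 and did not pass (adjusted p = 0.112).

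**Figure D5:**
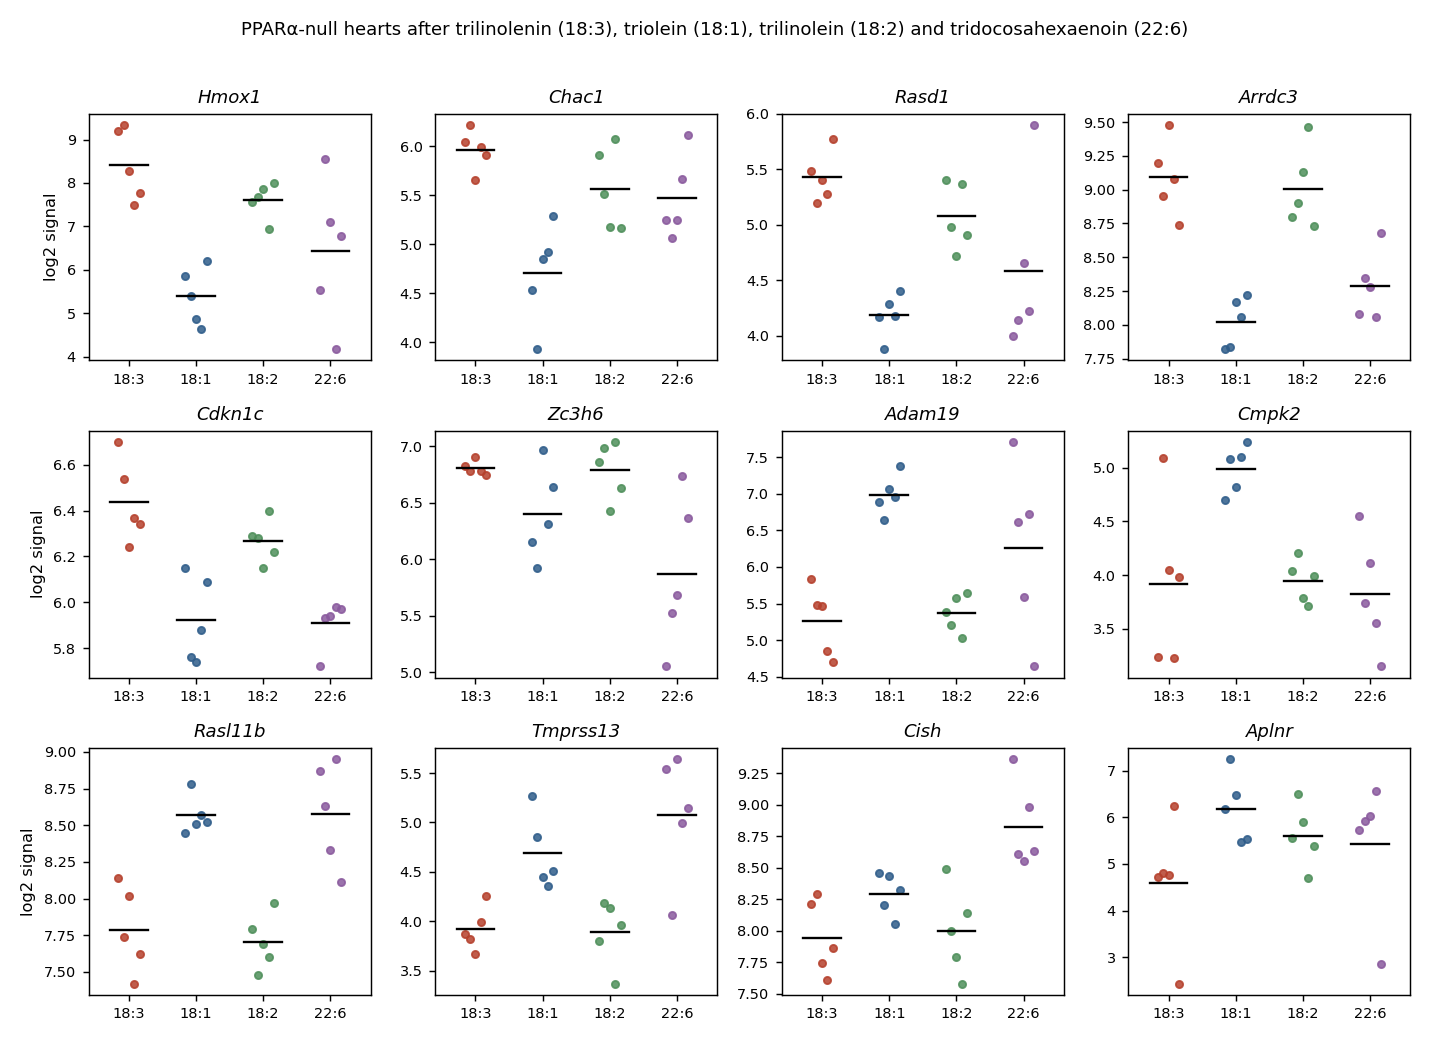
Log2 signal (vertical axes, a separate scale for each gene) of 12 genes in KO hearts given trilinolenin (18:3, red), triolein (18:1, blue), trilinolein (18:2, green) or tridocosahexaenoin (22:6, purple), 5 hearts each, with a line at the mean. For Hmox1, Chac1, Rasd1, Arrdc3, Cdkn1c, Adam19, Rasl11b and Tmprss13 the trilinolenin and triolein hearts do not overlap, and for none of the 12 was the difference from trilinolein called.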

How the data were processed

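RNA of 55 mouse hearts was measured on Affymetrix arrays. The authors deposited log2 values made with GCRMA 2.2.0, per the submitters' processing notes; no other setting is given there. Values ran from 0.22 to 14.9. The 10 KO arrays of the main comparison had medians of 2.55 to 2.61, held 29% to 30.1% of probe sets over the brightness minimum, correlated pairwise at 0.977 to 0.994 over probe sets, and shared at most 0.175% of identical values.

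Of 45101 probe sets, GEO's platform annotation gives 34958 a single symbol, 932 several and 9211 none; probe sets with several or none were not used, and 34754 matched the RefSeq table by Entrez ID, with 0 symbols changed. The probe set with the highest mean stood for a gene (9012 of 18194 genes had several). Tested were 8238 genes whose linear signal passed 20 in at least 3 arrays. The mean of each of 12 groups was fitted to all 55 arrays with limma 3.58.1 in R 4.3.3, so that the spread is shared, and p-values were adjusted by Benjamini-Hochberg over the 8238 genes within each comparison. Errors after ± are SE of the fitted difference with 5 hearts a group (4 and 3 in WT). The scripts were tested on simulated data. The number of arrays limits the precision. The labels number the replicates without saying that each is a separate mouse, so p-values measure the spread between these arrays. No batch is given in the sources used here.

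The gene lists and the genes to describe were chosen with earlier results of these data known. Named by rule were 20 index genes of the study's pathways, the 15 largest rises and 15 largest falls among calls whose trilinolenin hearts all lay above, or all below, the control mean, up to 6 called members per list by p, the 5 largest interaction calls in each direction (there were none), and the 3 largest calls in each direction against each oil. Predicted genes were left unnamed, and Cpt1b, an index gene, was not tested. Other genes were named after their values were seen. Alternatives changed the filter, the probe set rule, the normalization, the prior, array weights, the replicate block, the arrays in the fit and each heart in turn. Promoter windows are RefSeq's.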

Additional observations from a re-analysis of the deposited data

Results flagged for a closer look

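Among 260 sets of 5 hearts (the trilinolenin or control hearts of 1 named gene), 12 held a heart whose gap to its nearest neighbour took up most of the group's range (4.62%), 4 in trilinolenin and 8 in control hearts. Chance gives about 1 in 20. In the trilinolenin hearts, Acot1 was at 5.27 in heart 5 (3.76 to 4.02 in the other 4), Nr4a1 at 8.73 in heart 1 (6.86 to 7.21), Iigp1 at 9.17 in heart 5 (9.38 to 9.45) and Srxn1 at 5.02 in heart 5 (5.35 to 5.46).

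In the control hearts, heart 1 stood apart for Acot1 at 4.73 (3.85 to 4.06 in the other 4), Angptl4 at 7.79 (6.87 to 7.11) and Lipe at 6.58 (6.14 to 6.26). Control heart 2 stood apart for Chac1 at 4.65 (4.14 to 4.25) and Tnfrsf12a at 7.96 (7.01 to 7.26), and control heart 3 for Cd163 at 6.27 (6.66 to 6.73). Control heart 4 was low for Col4a1 at 9.86 (10.22 to 10.30) and St8sia4 at 5.79 (6.33 to 6.39).

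For 2 named genes every trilinolenin heart lay on one side of the control mean in KO hearts and on the other side in WT hearts. Fabp3 was at -0.10 in KO and 0.03 in WT hearts, a difference of -0.13 (interaction in limma, adjusted p = 0.957). Ier3 was at -0.51 in KO and 0.17 in WT hearts, a difference of -0.69 (adjusted p = 0.869).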

How the results depend on the processing

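Of 117 named genes called for trilinolenin against control, 77 kept their call in every alternative they entered and in all 10 fits without a heart, and none changed sign; 101 of the 117 entered all 9 alternatives, and 66 of these kept their call throughout. The 984 calls became 633 (291 higher, 342 lower) when only the groups compared were fitted, and 777 to 1159 under the other alternatives. A second quantile normalization gave 456 higher and 568 lower, with an all-gene median of -0.01 beside -0.02. Leaving out each heart gave 649 to 1071. The interaction had 0 calls, 1 with a filter at 100, array weights, a trended prior or without the 3 arrays of weight under 0.5 (chosen after seeing the data), 2 with the mean of all probe sets, and 0 to 1 without single hearts. The 83 calls against triolein became 49 with no filter, 148 with array weights, 33 when only the groups compared were fitted, and 27 to 130 without single hearts. The 27 against tridocosahexaenoin became 6 with no filter, 0 with array weights, when only the groups compared were fitted or without the 3 arrays, and 0 to 55 without single hearts. Against trilinolein there were 0 to 1 without single hearts. Whether the replicate numbers pair the hearts was not settled. Same-numbered deviations correlated at -0.02 to 0.12 (other numbers -0.18 to 0.10), and 3 of 5 hearts correlated best with their own number. A replicate block gave 1024 calls against control, 0 for the interaction, 100 against triolein, 0 against trilinolein and 36 against tridocosahexaenoin. Acot1, not called and dim, turned to -0.016 with array weights and to -0.19 without the 3 arrays or without trilinolenin heart 5 (-0.19 to 0.23 over single hearts left out), and Cmpk2, not called, to -0.17 without trilinolenin heart 2 (-0.17 to 0.29). With the mean of all probe sets, 2 called named genes grew by more than 1.5 times (Fbxo32 at 0.72 in place of 0.42, Fabp4 at 0.56 in place of 0.28) and 13 shrank by as much: Nt5e to 0.97, Angptl4 to 0.70, Cebpd to 0.49, Fdft1 to 0.31, Mgst1 to 0.23, Sox4 to -0.98, Rasgrp3 to -0.71 and St8sia4 to -0.62, all still called, and Lipe to 0.17, Per2 to 0.23, Osmr to 0.19, Lifr to 0.11 and Acadl to -0.011, which lost their calls, as did Hsd17b11 and Tnfrsf12a. Fitting only the groups compared lost 29 of the 117 calls (Acaa2, Acadl, Acadvl, Atf5, Casq2, Ccnd2, Cdkn1c, Col4a2, Emcn, Eno3, G0s2, Gstm1, Hsd17b11, Hsdl2, Hspd1, Jun, Lipe, Med1, Mgst1, Myct1, Ndufs3, Nfkbia, Nr1d1, Per2, Pkm, Pnpla2, Pparg, Rasl11b and Uqcrfs1), no filter lost 20 (Acadl, Angptl4, Atf5, Casq2, Emcn, Eno3, Hsd17b11, Hspd1, Kdr, Lifr, Manf, Ndufs3, Nr4a1, Osmr, Per2, Pkm, Pnpla2, Rasl11b, Tnfrsf12a and Uqcrfs1), leaving out the 3 arrays 12 (Angptl4, Atf5, Emcn, Gstm1, Hif1a, Hsd17b11, Hspd1, Med1, Ndufs3, Pkm, Pnpla2 and Rasl11b), the replicate block 3 (Eno3, Hspd1 and Rasl11b), and a second quantile normalization (Hspd1) and array weights (Rasl11b) 1 each. The causes of these shifts were not tested, beyond fewer arrays in fits of only the groups compared. Genes near the brightness minimum have the least sure differences, and the share of the other bright probe sets of called named genes with the same sign was 81 of 82 (the exception is Per2).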
